A study of Sus scrofa with 5 samples.

Results

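Carrier proteins that move glucose, lactate, ketone bodies, citrate, sulfate and vitamin C across membranes were followed in a pig kidney transplanted into a human recipient, by bulk RNA sequencing of kidney core biopsies. The 45 genes described were all those of the pig count table whose symbol starts with SLC2A (12 genes), SLC5A (12), SLC13A (4), SLC16A (14) or SLC23A (3), of 15235 symbols in that table. The rule uses the symbol alone, though it was set with earlier results of these data known. One of them, SLC2A4RG, carries the name of a carrier but encodes a DNA-binding regulator. A filter on low counts left 41 of the 45 for testing.

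The series holds 5 libraries. The control group is 2 libraries, replicates 1 and 2, from untransplanted kidney at 0 h, and the xenograft group is 1 biopsy at each of 12, 24 and 48 h from the graft of the study's second case. The labels used here give the species as pig and the tissue as kidney, and name neither a genotype of the donor pig nor a drug. They call the cells dissociated, while their protocol describes core biopsies homogenised whole, with total RNA depleted of ribosomal RNA. The titles of controls and biopsies alike hold the words second kidney biopsy. The labels do not say whether the controls came from separate animals or how they relate to the graft. With this, and with 1 graft behind all the biopsies, every p-value measures only the spread between these libraries. Levels are given as CPM, counts per 1000000 of the library's total after TMM scaling (a correction for differences in composition), and they are compared between libraries and not between genes, since no gene length entered them.

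The families differ in what drives transport. SLC2A genes encode the GLUT carriers, which let sugars or urate cross along their gradient. SLC5A genes encode carriers driven by sodium, with sugar, inositol, vitamin and monocarboxylate forms, and SLC13A genes encode sodium-driven carriers of sulfate, citrate and other dicarboxylates. The SLC16A family includes the proton-linked lactate carriers as well as carriers of aromatic amino acids, creatine and carnitine, and SLC23A1 and SLC23A2 encode sodium-driven vitamin C carriers. In the kidney the proximal tubule recovers filtered glucose through SGLT2 (SLC5A2) and, further along, SGLT1 (SLC5A1), and passes it to the blood through GLUT2 (SLC2A2). The same segment takes back filtered lactate, citrate and sulfate, makes new glucose and performs little glycolysis.

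As a share of all pig-table counts, the 45 genes took 0.701% and 0.572% in the controls and 0.367%, 0.301% and 0.229% at 12, 24 and 48 h. SLC5A12 alone held 35.9% and 34.5% of those counts in the controls as against 10.1%, 7.69% and 7.51% in the xenograft. Library totals were 56129361 to 71107513 counts for pig symbols and 13386782 to 19738214 for human symbols. The share of pig-table counts on the 13 protein genes of the mitochondrial genome was 21.9% and 33.4% in the controls against 11.8% to 14.5% in the biopsies, and its part in the results was not tested beyond a fit that left those genes out. That fit kept all 26 calls among the carriers in the comparison of the xenograft with the controls. The 2 controls differed by more than counting noise and count as 2 libraries. Their chi-square was 218 per degree of freedom over 12319 genes, on unscaled counts with the mitochondrial genes kept. After TMM scaling the median absolute log2 difference between the controls was 0.148 over the tested carriers and 0.152 over all tested genes. Among the tested carriers, 2 differed over 2-fold between them, both at few counts (SLC16A8 and SLC16A11).

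Set against the controls, 19 of the 41 tested carrier genes were lower in the xenograft and 7 were higher, at an adjusted p of 0.05 (edgeR's quasi-likelihood test, adjusted after Benjamini and Hochberg over all 12612 tested genes). The background was 19.0% of all tested genes lower and 18.5% higher. The members called lower were thus 46.3% of those tested, and the members called higher were 17.1%, near the background. The median log2 fold change was -0.49 over the members and 0.03 over all tested genes. In 20 of the 41 every biopsy lay below both controls, and in 12 every biopsy lay above, where 32.5% and 33.7% of all tested genes did so. Called lower were 3 of 10 SLC2A, 5 of 10 SLC5A, 3 of 4 SLC13A, 6 of 14 SLC16A and 2 of 3 SLC23A genes, and called higher were 2, 1, 0, 4 and 0. Without control replicate 1 the calls were 2 higher and 13 lower, without control replicate 2 they were 1 and 12, and without the 24 h biopsy 3 and 15. Calls over all tested genes also fell without control replicate 1, and the member counts of these refits were not set against a share over all genes. In the RefSeq annotation of Sscrofa11.1, SLC2A6, SLC2A12, SLC5A2, SLC5A3, SLC5A6, SLC5A8, SLC5A10, SLC13A5, SLC16A1, SLC16A6, SLC23A1 and SLC23A3 overlap another protein gene and SLC16A11 and SLC16A13 overlap each other. The strand setting of the counting is not given in the sources used here, so reads of the shared stretches cannot be assigned with certainty. In bulk tissue, fewer cells of a type and less RNA per cell cannot be told apart.

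**Figure D1:**
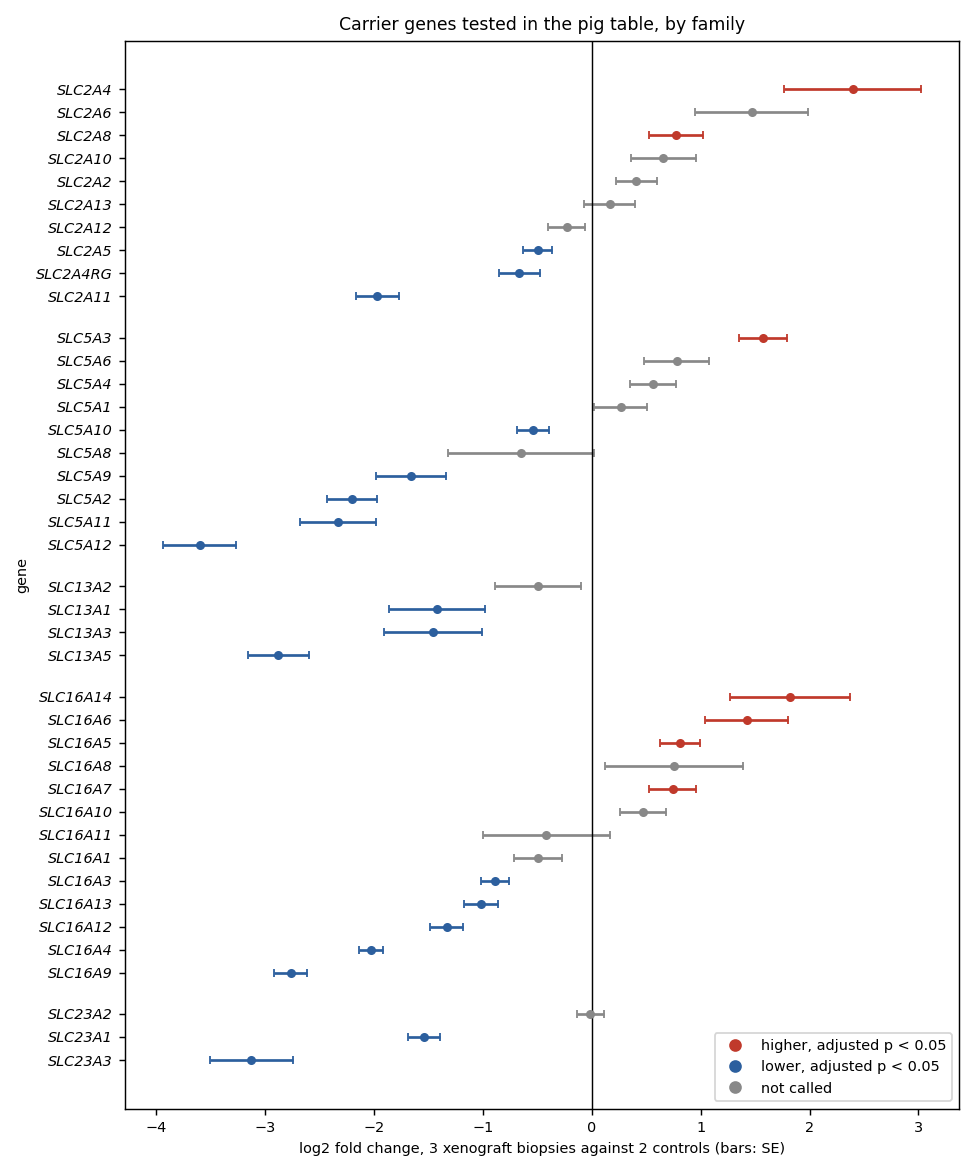
Log2 fold change of 40 tested carrier genes, 3 xenograft biopsies against 2 controls, by family. Points are edgeR estimates, bars are 1 SE, and colour gives the call at an adjusted p of 0.05. SLC5A12 lies lowest at -3.60 and SLC2A4 highest at 2.40.

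Of the carriers for glucose reabsorption, the gene of the main sodium-coupled carrier fell while the 2 genes beside it on the route did not pass the test. SLC5A2, encoding SGLT2 of the early proximal tubule, stood at 598 and 686 CPM in the controls and at 146, 172 and 100.4 CPM at 12, 24 and 48 h. Every biopsy was below both controls, with a fold change of 4.60 downward (log2 -2.20 ± 0.23, SE, 3 biopsies against 2 controls, edgeR adjusted p = 0.000994). SLC5A1, encoding SGLT1 of the later proximal tubule, had 19.5 and 14.8 CPM in the controls against 26.3, 20.1 and 15.5 CPM. The groups overlapped, the 12 h biopsy being the highest library (log2 0.27 ± 0.24, adjusted p = 0.414). SLC2A2, encoding GLUT2 of the basolateral membrane, had 81.2 and 77.6 CPM in the controls and 132, 93.8 and 89.7 CPM in the biopsies. All 3 biopsies lay above both controls, but the difference did not pass (log2 0.41 ± 0.19, adjusted p = 0.129).

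The same genes were also compared within each library, where no scaling enters. There were 30.6 and 46.4 SLC5A2 counts per SLC5A1 count in the controls, and 5.56, 8.57 and 6.46 at 12, 24 and 48 h. The number of SLC5A2 counts per SLC2A2 count was 7.36 and 8.83 in the controls as against 1.10, 1.84 and 1.12 in the xenograft. Neither ratio overlapped between the groups, and how often other gene pairs do so was not counted. For each, an exact two-sided permutation test over the 10 possible splits gave p = 0.2, and 0.2 after adjustment over the 6 ratios computed. This is the smallest p the design allows, so the test could not pass for any ratio, here or below, and decides nothing about them. The pairs of all 6 ratios were chosen after their values were seen. SLC5A1 and its neighbour SLC5A4, which lie next to each other in the RefSeq annotation of Sscrofa11.1, are related in sequence, and how reads that fit both were counted is not given in the sources used here.

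Carrier genes for other sugars went both ways. SLC5A9, encoding SGLT4, a carrier of mannose and related sugars, had 30.5 and 30.6 CPM in the controls and 5.57, 12.9 and 10.5 CPM at 12, 24 and 48 h. It fell 3.16-fold (log2 -1.66 ± 0.32, adjusted p = 0.00972), with the lowest library at 12 h, but lost its call once control replicate 1 or 2 was dropped (adjusted p = 0.0614 and 0.0731). SLC5A10, encoding the kidney carrier SGLT5 for mannose and fructose, went from 89.3 and 99.6 CPM to 71.5, 67.6 and 55.6 CPM. This smaller fall of 1.45-fold (adjusted p = 0.0246) was lost without control replicate 1 or 2 or the 24 h biopsy (adjusted p = 0.0935, 0.191 and 0.0542). SLC2A5, encoding the fructose carrier GLUT5, behaved alike in size, from 88.1 and 91.9 CPM to 67.2, 68.6 and 55.5 CPM (1.41-fold lower, adjusted p = 0.0250), and was not called without either control (adjusted p = 0.118 and 0.171). SLC2A11, a further GLUT gene, fell 3.92-fold, from 174 and 199 CPM to 39.4, 60.4 and 42.8 CPM (log2 -1.97 ± 0.20, adjusted p = 0.000859), and kept its call in each fit with 1 library left out.

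SLC2A4 rose from a low level. It encodes GLUT4, the insulin-regulated carrier of muscle and fat, and had 88 and 43 counts in the controls against 740, 393 and 175 at 12, 24 and 48 h. As levels these were 1.47 and 0.826 CPM against 10.2, 5.40 and 2.61 CPM, every biopsy above both controls and the 12 h biopsy highest. The rise was 5.27-fold (log2 2.40 ± 0.63, adjusted p = 0.0269), but the call was lost when either control or the 24 h biopsy was dropped (adjusted p = 0.0951, 0.181 and 0.0548). A list of fat and muscle markers was read as well, and which cells held SLC2A4 here was not tested. Over all tested genes 19.0% were lower and 18.5% higher. Fits with 1 library left out have other shares, which are not given beside their counts. Of 4 tested genes on that list 3 were lower and 0 higher, and the summed level of its 5 genes was 51.8 and 59.7 CPM in the controls and 8.89 to 14.9 CPM in the biopsies, with 1 and 2 genes lower without the 24 h or 12 h biopsy and 1 lower without either control. SLC2A4RG, the regulator named after this gene, was 1.59-fold lower (adjusted p = 0.0309), from 42.5 and 55.3 CPM to 24.9, 31.8 and 35.7 CPM. That call was lost without control replicate 1 or 2 or the 24 h biopsy (adjusted p = 0.0661, 0.248 and 0.0696).

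SLC2A8, encoding the intracellular carrier GLUT8, had 4.91 and 5.84 CPM in the controls and 10.3, 10.4 and 6.81 CPM in the biopsies. It rose 1.71-fold (adjusted p = 0.0454), close to the threshold, and the call needed both controls and the 12 h and 24 h biopsies, since dropping them one by one ended it (adjusted p = 0.246, 0.161, 0.0720 and 0.127). SLC5A4, SLC2A6 and SLC2A10 lay above both controls in every biopsy without passing, at log2 0.56 ± 0.21, 1.47 ± 0.52 and 0.66 ± 0.29. SLC2A6 was measured on few counts, 14 and 10 in the controls as against 25, 42 and 58 in the xenograft. SLC2A12 was at log2 -0.23 ± 0.17, and its groups overlapped.

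The 2 sodium-driven carriers of myo-inositol moved in opposite directions. SLC5A3 encodes SMIT1, which brings this osmolyte into cells under hypertonic conditions, and stood at 10.4 and 8.51 CPM in the controls and at 31.4, 31.8 and 21.1 CPM at 12, 24 and 48 h. It rose 2.97-fold (log2 1.57 ± 0.22, adjusted p = 0.00261). SLC5A11 encodes SMIT2, an inositol carrier of the proximal tubule, and stood at 124 and 140.4 CPM in the controls and at 14.4, 30.3 and 34.0 CPM in the biopsies, 5.04-fold lower (log2 -2.33 ± 0.35, adjusted p = 0.00433). Both calls held in each fit with 1 library left out. Within libraries there were 12.0 and 16.5 SLC5A11 counts per SLC5A3 count in the controls as against 0.457, 0.955 and 1.61 in the xenograft (exact two-sided permutation p = 0.2, the smallest possible). SLC2A13, encoding a proton-driven inositol carrier, did not pass (log2 0.16 ± 0.23, adjusted p = 0.607), and its direction turned without control replicate 2 (log2 -0.072).

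SLC5A6, encoding the sodium-driven carrier of biotin and pantothenate, had 109.6 and 127 CPM in the controls and 284, 187 and 137 CPM at 12, 24 and 48 h. Every biopsy lay above both controls and the levels approached them with time. Over the 3 biopsies together the difference did not pass (log2 0.78 ± 0.30, adjusted p = 0.0835), whereas it did on dropping the 48 h biopsy (log2 0.99, adjusted p = 0.0109) and by DESeq2 (adjusted p = 0.0280).

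Among the carriers of lactate, the largest difference of all 41 genes was in SLC5A12. It encodes SMCT2, the sodium-driven carrier that takes up filtered lactate at the brush border, and stood at 2775 and 2695 CPM in the controls and at 322, 210.4 and 144 CPM at 12, 24 and 48 h. It fell 12.1-fold (log2 -3.60 ± 0.33, adjusted p = 0.000752), and its log2 fold change ran from -3.95 to -3.36 when each library was left out in turn. SLC5A8, encoding the higher-affinity carrier SMCT1, was uneven, at 10.1 and 5.34 CPM in the controls and 4.64, 8.58 and 1.52 CPM in the biopsies. The 24 h biopsy lay between the controls, and the difference did not pass (log2 -0.65 ± 0.67, adjusted p = 0.475). Within libraries there were 275 and 505 SLC5A12 counts per SLC5A8 count in the controls as against 69.4, 24.5 and 94.5 in the xenograft (exact two-sided permutation p = 0.2, the smallest possible).

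The proton-linked lactate carriers differed among themselves. SLC16A3, encoding MCT4, the carrier by which glycolytic cells release lactate, had 53.6 and 59.5 CPM in the controls and 27.5, 31.3 and 32.6 CPM in the biopsies. It fell 1.86-fold (log2 -0.89 ± 0.13, adjusted p = 0.00271) and kept its call with any 1 library left out. SLC16A1, encoding the widespread carrier MCT1, was at 75.1 and 68.2 CPM in the controls, 67.2 CPM at 12 h and 43.5 and 41.8 CPM at 24 and 48 h. The 12 h biopsy lay just under control replicate 2, and the difference passed only without that biopsy (log2 -0.75, adjusted p = 0.00265, against log2 -0.49 ± 0.22 and adjusted p = 0.114 with all 3). SLC16A7, encoding the high-affinity carrier MCT2, had 38.0 and 23.9 CPM in the controls and 56.5, 54.0 and 44.9 CPM in the biopsies. It rose 1.68-fold (log2 0.74 ± 0.22, adjusted p = 0.0337), and control replicate 2 set much of the size, since the log2 fold change was 0.45 without it and 1.12 without control replicate 1. The call was lost without control replicate 2 or the 12 h or 24 h biopsy (adjusted p = 0.209, 0.0596 and 0.0873). SLC16A8, encoding MCT3 of the retinal pigment epithelium, was measured on 3 to 14 counts a library and did not pass.

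**Figure D2:**
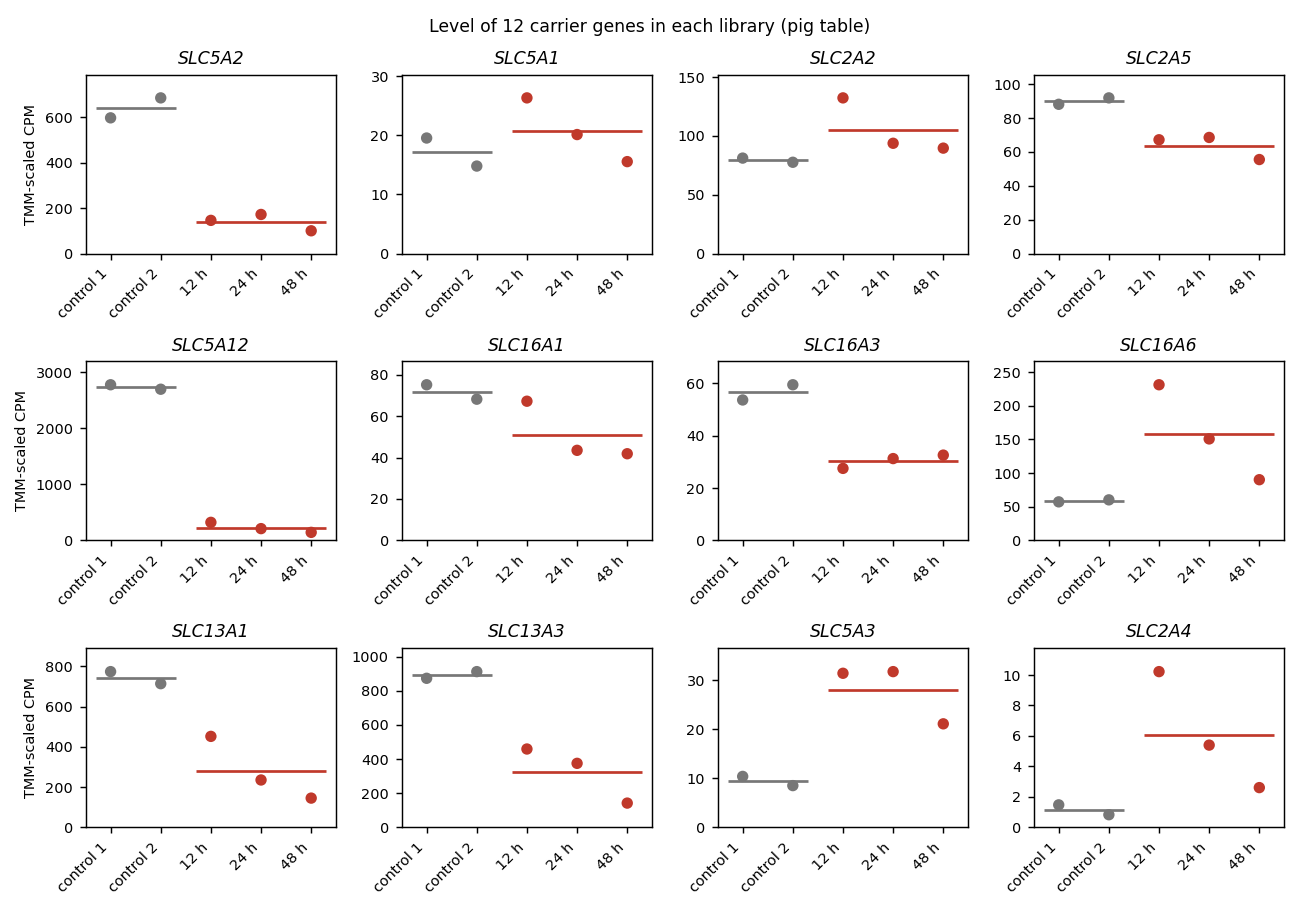
TMM-scaled CPM of 12 carrier genes in each library, controls in grey and biopsies in red, with a line at each group's mean and each vertical axis starting at 0. SLC5A12 and SLC5A2 are low in all 3 biopsies, SLC5A1 overlaps between groups, and SLC16A6 and SLC2A4 are highest at 12 h.

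Of the other SLC16A genes, those linked to creatine and carnitine fell. SLC16A9, encoding MCT9, linked to carnitine transport, dropped from 108 and 119.8 CPM to 18.1, 14.1 and 18.1 CPM, a 6.80-fold fall (log2 -2.76 ± 0.15, adjusted p = 0.000178). SLC16A4, whose product MCT5 has a poorly known cargo, had 268 and 260.4 CPM in the controls and an almost constant 64.9, 64.4 and 65.3 CPM in the biopsies. Its fall was 4.07-fold with the smallest SE of the 41 genes (log2 -2.03 ± 0.11, adjusted p = 0.000183). SLC16A12, encoding the creatine carrier MCT12, fell 2.52-fold, from 606 and 612 CPM to 232, 274 and 219 CPM (adjusted p = 0.00123). These 3 kept their calls with any 1 library left out. SLC16A13 fell 2.03-fold (adjusted p = 0.00345, but 0.0524 without control replicate 2). SLC16A11, which overlaps it, had 13 to 38 counts a library and did not pass (log2 -0.42, but 0.68 without control replicate 2).

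SLC16A6, SLC16A5 and SLC16A14 rose. SLC16A6 encodes MCT7, a carrier that exports ketone bodies, and had 57.3 and 60.2 CPM in the controls and 231, 151 and 90.2 CPM at 12, 24 and 48 h. It was 2.68-fold higher (log2 1.42 ± 0.38, adjusted p = 0.0300), with the biopsies falling towards the controls over time, and its call ended on dropping either control or the 24 h biopsy (adjusted p = 0.155, 0.158 and 0.0653). SLC16A5, encoding MCT6, went from 45.9 and 48.2 CPM to 68.1, 101 and 77.7 CPM (1.75-fold, adjusted p = 0.0139, but 0.109 and 0.110 without control replicate 1 or 2). SLC16A14 rested on few counts, 26 and 17 in the controls as against 116, 45 and 124 in the xenograft (3.54-fold, adjusted p = 0.0374). Its call was lost without control replicate 1 or 2 or the 12 h or 48 h biopsy (adjusted p = 0.149, 0.226, 0.0550 and 0.0540). SLC16A10, encoding the aromatic amino acid carrier TAT1, did not pass (log2 0.47 ± 0.21), and its 48 h biopsy lay between the controls.

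All 4 carriers of the SLC13A family had lower means in the xenograft, and 3 were called. SLC13A5, encoding the citrate carrier NaCT, stood at 14.1 and 15.4 CPM in the controls and at 1.34, 2.20 and 2.49 CPM at 12, 24 and 48 h. It fell 7.35-fold (log2 -2.88 ± 0.28, adjusted p = 0.000791), a call that held with any 1 library left out. SLC13A1, encoding the sodium-sulfate carrier of the brush border, stood at 774 and 714 CPM in the controls and at 452, 235 and 145 CPM in the biopsies. SLC13A3, encoding the basolateral dicarboxylate carrier NaDC3, had 873 and 913 CPM in the controls and 459, 375 and 142 CPM in the biopsies. In both genes each biopsy lay below the one before it and all lay below the controls.

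Averaged over the biopsies, SLC13A1 was 2.68-fold lower (log2 -1.42 ± 0.44, adjusted p = 0.0463) and SLC13A3 2.75-fold lower (log2 -1.46 ± 0.45, adjusted p = 0.0465). Both calls sat near the threshold. On dropping either control or the 24 h biopsy the adjusted p became 0.172, 0.164 and 0.120 for SLC13A1 and 0.153, 0.185 and 0.0878 for SLC13A3, and with no filter on low counts it was 0.0606 and 0.0608. SLC13A2, encoding the apical citrate carrier NaDC1, was at 106 and 117 CPM in the controls and at 92.2, 107 and 38.9 CPM in the biopsies. Only its 48 h biopsy lay far from the controls, the 24 h biopsy lay between them, and the difference did not pass (log2 -0.49 ± 0.40, adjusted p = 0.365). The number of SLC13A3 counts per SLC13A2 count was 8.21 and 7.80 in the controls as against 4.98, 3.51 and 3.64 in the xenograft (exact two-sided permutation p = 0.2, the smallest possible).

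The vitamin C carriers separated. SLC23A1, encoding SVCT1 of absorbing epithelia, had 119 and 127 CPM in the controls and 36.4, 48.8 and 41.7 CPM in the biopsies, and fell 2.91-fold (log2 -1.54 ± 0.15, adjusted p = 0.000752). SLC23A2, encoding the more widely expressed SVCT2, had 51.2 and 48.5 CPM against 49.5, 45.1 and 53.2 CPM, with overlapping groups (log2 -0.02 ± 0.12, adjusted p = 0.933), and its sign turned without control replicate 1 (log2 0.023) or the 24 h biopsy (0.041). SLC23A1 counts per SLC23A2 count numbered 2.33 and 2.62 in the controls as against 0.735, 1.08 and 0.783 in the xenograft (exact two-sided permutation p = 0.2, the smallest possible). SLC23A3 fell 8.73-fold, from 30.6 and 32.6 CPM to 1.87, 5.14 and 3.86 CPM (log2 -3.13 ± 0.38, adjusted p = 0.00211). Both falls were called with any 1 library left out.

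Of the 45 carrier genes, 4 were too low to test. SLC5A7, encoding the choline carrier of nerve endings, had 0 counts in every library, where 3 counts would correspond to 0.0412 to 0.0576 CPM. SLC5A5, encoding the thyroid iodide carrier, had 0, 0, 5, 0 and 1 counts over control replicates 1 and 2 and the 12, 24 and 48 h biopsies, and SLC2A7 had 1 count in control replicate 1 and none elsewhere. SLC2A9, encoding the urate carrier GLUT9 of the kidney tubule, had only 3 and 5 counts in the controls as against 6, 9 and 9 in the xenograft. SLC2A1 and SLC2A3, which encode the widespread glucose carriers GLUT1 and GLUT3, were not analysed here in the pig table.

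How the carriers changed within the graft was addressed with a slope over 12, 24 and 48 h, given as log2 change per 24 h. It was negative and called in 5 of 41 members (12.2%, against 0.983% of all tested genes) and positive and called in 0 (against 3.35%). At an unadjusted p under 0.05, 3 slopes were positive in edgeR, and by DESeq2's Wald test 1 member rose, SLC5A11 (adjusted p = 0.0291). With the slope ± SE and the adjusted p for each, the 5 were SLC13A3 (log2 -1.17 ± 0.18 per 24 h, adjusted p = 0.00913), SLC13A1 (-1.04 ± 0.18, 0.0156), SLC2A4 (-1.28 ± 0.26, 0.0294), SLC16A6 (-0.88 ± 0.13, 0.00692) and SLC5A6 (-0.67 ± 0.15, 0.0421). They fall into 2 patterns. SLC13A1 and SLC13A3 were below the controls at 12 h and lower still at 48 h, and SLC2A4, SLC16A6 and SLC5A6 were highest above the controls at 12 h and closest to them at 48 h. SLC5A6 was not called without control replicate 1 or 2 or the 12 h biopsy (adjusted p = 0.0814, 0.0757 and 0.110). SLC13A3 was not called without the 48 h biopsy (log2 -0.58, adjusted p = 0.406) and most of its fall lay between 24 and 48 h. With 1 biopsy left out the slope joins 2 libraries, and only the control pair is left to give its spread. The members called higher and lower were then 1 and 10 without the 12 h biopsy, 6 and 14 without the 24 h biopsy, and 5 and 8 without the 48 h biopsy. Calls over all tested genes, 422 higher and 124 lower in the full fit, also rose without the 12 h or 48 h biopsy. The member counts of these refits were not set against a share over all genes.

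**Figure D3:**
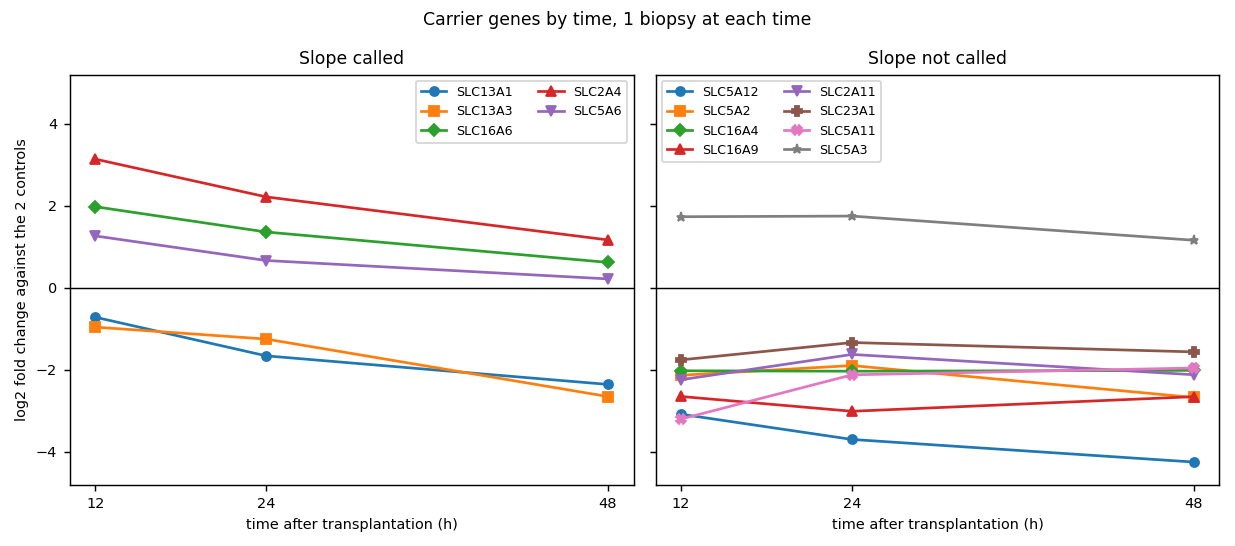
Log2 fold change of carrier genes against the 2 controls at 12, 24 and 48 h, 1 biopsy at each time, for the 5 genes with a called slope (left) and 8 genes without one (right). The lines join single biopsies and carry no error. On the left SLC2A4 goes from 3.14 to 1.17 and SLC13A3 from -0.96 to -2.65.

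SLC5A12 also went down from each biopsy to the next, at a slope of -0.75 ± 0.18 (adjusted p = 0.0556), just outside the threshold. It passed without the mitochondrial genes (0.0494), with no filter on low counts (0.0445) and by DESeq2 (5.08e-05). SLC13A2 stayed near the controls until 24 h and was lower at 48 h, at a slope of -0.94 ± 0.23 (adjusted p = 0.0693). It passed by DESeq2 (0.000613), and without the 48 h biopsy its slope turned to 0.43 (adjusted p = 0.492). A different course was seen in SLC5A11, SLC5A9, SLC23A3 and SLC13A5, which were lowest at 12 h and higher at both later times. Their slopes were 0.71 ± 0.23, 0.43 ± 0.31, 0.45 ± 0.38 and 0.52 ± 0.21, none called in the fit of all 5 libraries. SLC2A4RG, SLC16A13, SLC16A3, SLC23A1 and SLC2A11 were also lowest at 12 h, with smaller slopes of -0.02 to 0.32, none called. SLC16A4, SLC16A9 and SLC23A1 had slopes within 1 SE of 0.

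Taken 1 time at a time, the members called against the controls were 13 higher and 21 lower at 12 h (against 28.4% and 28.2% of all tested genes), 9 and 20 at 24 h (24.2% and 23.3%), and 9 and 22 at 48 h (26.9% and 24.6%). Here each lone biopsy was taken to vary like the control pair, which gives 1 residual degree of freedom, and the 3 times share their controls. No spread among biopsies enters these counts, so they describe single libraries and show no difference between times. The carriers lower at 12 h were 51.2% of the tested members, at 24 h 48.8% and at 48 h 53.7%. Those higher were 31.7%, 22% and 22%, close to or below the shares over all tested genes. SLC2A2 and SLC5A1 were at log2 0.74 and 0.62 at 12 h, 0.24 and 0.23 at 24 h and 0.18 and -0.14 at 48 h, and neither slope passed (adjusted p = 0.225 and 0.136). SLC13A2 and SLC5A8 were at log2 -1.52 and -2.35 at 48 h.

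Genes that work with these carriers were read from lists set by function, beside the same background of 18.5% higher and 19.0% lower. Of 7 tested gluconeogenesis genes 7 were lower (4 without either control), with a median log2 of -1.33. The 3 with the smallest p were FBP1 (fructose-bisphosphatase, 5.40-fold), G6PC1 (glucose-6-phosphatase, 8.72-fold) and PCK2 (mitochondrial PEPCK, 3.17-fold). Of 15 glycolysis genes 8 were higher and 0 lower (median 0.68), and those with the smallest p were PFKFB3, which makes an activator of phosphofructokinase (4.39-fold), PFKP (2.55-fold) and HK1 (2.45-fold). HK2, named after its value was seen, had the largest fold of the list (7.37-fold, adjusted p = 0.00226). The list had 5 and 4 genes higher without control replicate 1 or 2. Among lactate and pyruvate enzymes 2 of 14 were higher and 6 lower (median -0.36), with 0 and 3 in each fit without a control and 2 and 4 without the 48 h biopsy. LDHA, which favours lactate production, rose 1.53-fold and LDHB 1.74-fold, though both lost their calls on dropping control replicate 1 (0.127 and 0.0669, adjusted p) or 2 (0.131 and 0.0979). LDHD, which oxidises D-lactate, fell 2.46-fold, PDK2 2.60-fold and PDK3 2.40-fold, the last 2 encoding kinases that inhibit pyruvate dehydrogenase.

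Of 7 enzymes of fructose, sorbitol and inositol 2 were higher and 4 lower (median -1.07), against 0 and 4 on dropping control replicate 1 and 0 and 1 on dropping the other. SORD, which turns sorbitol into fructose, fell 2.99-fold (adjusted p = 0.0504 without control replicate 2), DCXR, an enzyme of xylulose metabolism, 2.10-fold (0.108 without control replicate 2) and GLYCTK 3.69-fold. ISYNA1, which makes inositol, rose 3.58-fold and AKR1B1, which makes sorbitol from glucose, 1.98-fold. Both calls ended on dropping control replicate 1 (adjusted p of 0.0746 and 0.0595) or 2 (0.0911 and 0.0802). Among genes of the citrate cycle and citrate cleavage 4 of 18 were higher and 8 lower (median -0.43), against 0 and 4 on dropping control replicate 1 and 0 and 0 on dropping the other. SDHC, FH and SUCLG2 were 2.17-, 1.73- and 2.10-fold lower, not passing without control replicate 2 (adjusted p = 0.0703, 0.0549 and 0.0511), nor FH without control replicate 1 (0.0503). ACO1, IDH3A and IDH2 were 1.62-, 1.76- and 1.53-fold higher, not passing without control replicate 1 (0.0840, 0.103 and 0.165) or 2 (0.0954, 0.121 and 0.149).

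Among partners and regulators of the carriers 3 of 15 were higher and 5 lower (median -0.05), against 1 and 3 in each fit without a control. HNF4A, a transcription factor of the proximal tubule, had 593 and 640.0 CPM against 499, 385 and 320.3 CPM and was not called (adjusted p = 0.0508), though it was on dropping the 12 h biopsy (0.00924) and by DESeq2 (0.0131). MLXIPL, encoding the glucose-sensing factor ChREBP, fell 5.09-fold and SLC9A3R1, a scaffold of brush border carriers, 2.92-fold. PDZK1, another scaffold, fell 2.28-fold, but not without control replicate 1 or 2 (adjusted p = 0.0621 and 0.0758). HIF1A, encoding the oxygen-regulated factor that acts on glucose carriers and glycolysis, rose 2.64-fold. SGK1, a kinase acting on carriers, rose 1.82-fold, and ARRDC4, an arrestin that lowers glucose uptake, 1.78-fold. Both calls rested on each control, ending without replicate 1 (adjusted p of 0.0719 and 0.0806) or 2 (0.105 and 0.0685). TXNIP, its relative, was at log2 0.30 ± 0.17. EMB, which escorts lactate carriers to the membrane, was at log2 0.19 ± 0.41 over the 3 biopsies and rose with time (0.95 ± 0.17 per 24 h, adjusted p = 0.0162).

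Markers of the cells that hold these carriers were read beside the same background, 18.5% of all tested genes higher and 19.0% lower. Fits with 1 library left out have other shares over all genes, which are not given beside their counts. The 11 proximal tubule markers summed to 24154 and 25496 CPM in the controls and to 8241 to 10647 CPM in the biopsies, and 11 of 11 were lower (median log2 -1.92, 10 and 8 of 11 without control replicate 1 or 2). None of them had a called slope, which for 11 genes is near the background of 3.35% of all tested genes upward and 0.983% downward. The fall of SLC5A2 (log2 -2.20) lay near that median, those of SLC5A12 (-3.60) and SLC23A3 (-3.13) were larger, and SLC5A10 (-0.54) and SLC2A2 (0.41) lay well above it. None of these distances was tested. This list shares members with the gluconeogenesis list, FBP1 among them. Markers of the distal nephron, from the thick ascending limb on, were 2 higher and 2 lower of 8 (summed 4907 and 5372 CPM against 4869 to 9012), and 3 of 8 tested collecting duct markers were higher (1010.3 and 1082 CPM against 1023 to 1270.2). Endothelial markers were 5 of 8 higher (316 and 391 CPM against 719 to 759 CPM). Podocyte markers were 1 higher and 5 lower of 6 (289.7 and 364 CPM against 118 to 188). Leukocyte markers were 3 higher and 2 lower of 9 tested (78.0 and 85.4 CPM against 289 to 415), with LYZ at 0 in every library, and of the red cell markers HBB was higher and AHSP was at 0. Without control replicate 1 the higher and lower calls were 1 and 1 for the distal nephron, 1 and 0 for the collecting duct, 3 and 0 for endothelium, 0 and 2 for podocytes, 3 and 0 for leukocytes and 0 and 0 for red cells. Without control replicate 2 they were 1 and 0, 1 and 0, 2 and 0, 0 and 2, 3 and 0, and 0 and 0, in the same order. The distal counts were 1 and 2 without the 12 h biopsy, 1 and 4 without the 24 h biopsy and 2 and 3 without the 48 h biopsy. Without the 12 h biopsy 5 collecting duct markers were higher, and 5 leukocyte markers were higher and 2 lower. The leukocyte counts were 3 and 1 without the 24 h biopsy and 3 and 3 without the 48 h biopsy, and the podocyte counts 0 and 4 without the 24 h biopsy. What part such changes in cells had in the carriers' values was not tested.

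The human count table gave a second reading of the same symbols. Untransplanted kidney also has counts there, so a count in that table is not by itself a human transcript. The median tested carrier had, for each 100 pig-table counts, 10.3 human-table counts in the pooled controls and 12.8 in the pooled biopsies. This number moved over 2-fold in 1 tested carrier upward and in 1 downward. SLC5A12 was even, at 7.23 per 100 in the pooled controls and 7.69 in the pooled biopsies. SLC5A2 was likewise even, at 27.3 and 26.6 per 100 in the controls as against 30.1, 28.5 and 29.8 in the xenograft. SLC5A10 went from 20.6 and 20.3 per 100 to 14.4, 15.3 and 11.1. SLC16A4 was the 1 tested carrier with a fall of over 2-fold, with 12.4 and 13.2 per 100 in the controls but 3.94, 2.79 and 2.96 in the biopsies, so its fall was larger in the human table. SLC2A6, a lysosomal GLUT carrier, was the 1 with a rise of over 2-fold, with 4 and 3 human-table counts in the controls as against 58, 31 and 108 in the xenograft, which was 232, 73.8 and 186 per 100 pig-table counts.

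Of the other GLUT genes, SLC2A7 had 0 human-table counts in every library, and SLC2A14 had 9 and 4 in the controls as against 14, 10 and 5 in the xenograft, with overlapping groups. SLC2A9 had 0 and 1 human-table counts in the controls as against 24, 20 and 42 in the xenograft, more than its 6, 9 and 9 pig-table counts. SLC2A3, the neuronal and blood cell carrier GLUT3, had 3 human-table counts in each control and 178, 205 and 134 at 12, 24 and 48 h. SLC2A1 was different, since its human-table counts were already 906 and 719 in the controls as against 1736, 1683 and 1448 in the xenograft. As CPM of the scaled pig-table totals that was 15.2 and 13.8 against 24.0, 23.1 and 21.6, with every biopsy above both controls. These human-table values are descriptions without a test, and recipient and graft transcripts cannot be told apart in them.

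**Figure D4:**
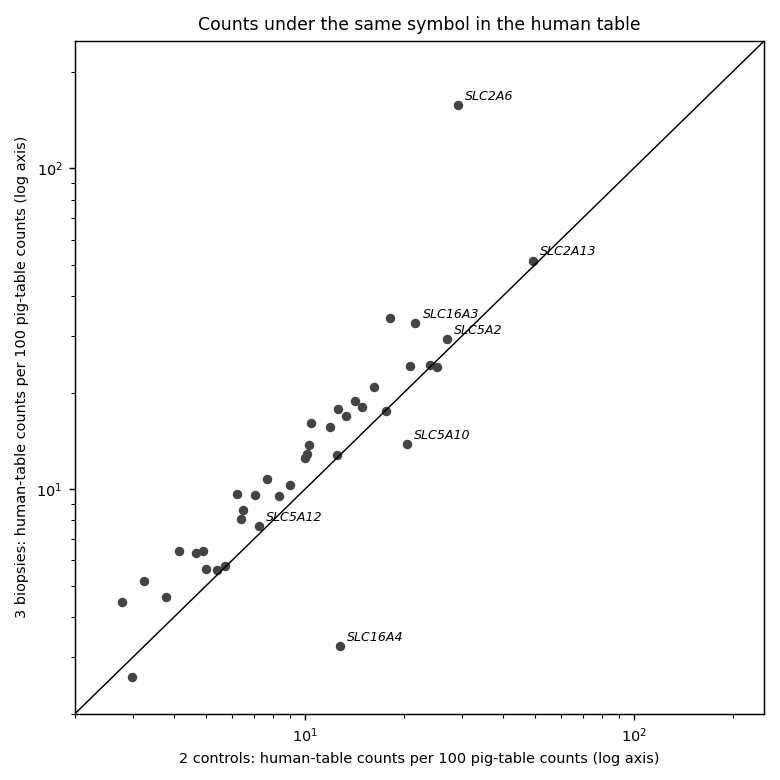
Human-table counts per 100 pig-table counts under the same symbol, pooled over the 2 controls (horizontal) and the 3 biopsies (vertical), for 40 tested carrier genes, both axes logarithmic, with the line of equality. Most points lie near or somewhat above the line, SLC2A6 lies far above it at 29.2 and 158, and SLC16A4 below it at 12.8 and 3.24.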

How the data were processed

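RNA was sequenced from kidney core biopsies, 2 control and 3 xenograft libraries, after depletion of ribosomal RNA, per the labels' protocols. The authors deposited raw read counts per gene symbol, in 1 table of pig and 1 of human symbols. The submitters' processing notes name only the build hg38, and the aligner, counter, annotation and strand setting are not given in the sources used here. In the pig table, 16 rows that name RNA families rather than genes were left out (0.00101% to 0.00187% of counts).

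Counts were tested with edgeR 4.0.16 (TMM scaling, robust quasi-likelihood test) in R 4.3.3. Low genes were removed by filterByExpr (count of 10, total of 15), which kept 12612 genes, and p-values were adjusted by Benjamini and Hochberg over all of them at 0.05. Biopsies were compared with controls (3 residual degrees of freedom), by a slope over hours within the xenograft (2) and at each time (1). Scripts were tested on simulated data. Alternatives were DESeq2's size factors, DESeq2 1.42.0, TMM without the mitochondrial genes, no filter, and leaving out each library. Each standard error is the size of the log2 estimate over the square root of its F.

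The members, lists and tests were chosen with earlier results of these data known. Genes described with all libraries were the members that passed in the xenograft comparison or the slope and the textbook carriers of kidney tubules, with other members by range. From each pathway list came the 3 passing genes with the smallest p in each direction, and HNF4A, BSG, EMB, PDZK1, PDZK1IP1, TXNIP and LDHA whatever their test. Some genes that this rule takes are not reported here and stay in the counts. BSG, PDZK1IP1, PKM and SLC13A4 were not analysed here in the pig table. The 6 count ratios and the refits of the lists were chosen after seeing the data. All 45 symbols matched the RefSeq gene table of Sscrofa11.1, from which only neighbours and overlaps were taken. No sequences or gene lengths were used here.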

Additional observations from a re-analysis of the deposited data

How the results depend on the processing

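DESeq2's size factors and TMM without the mitochondrial genes moved no count by over 1.5 times, and the larger shift of the median of all genes was -0.01 on the log2 scale (DESeq2's size factors). In the comparison of the xenograft with the controls, 3 carriers changed direction, none of them called: SLC16A11 without control replicate 2 (log2 0.68), SLC2A13 without control replicate 2 (-0.072), and SLC23A2 without control replicate 1 (0.023) or the 24 h biopsy (0.041). In leave-one-out fits, the 2332 higher and 2399 lower genes of that comparison became 462 to 2636 (738 without control replicate 1) and 725 to 2633 (1057 without control replicate 1). The 7 higher carriers became 1 to 8 (3 without the 24 h biopsy) and the 19 lower carriers 12 to 20 (13 without control replicate 1). The slope's 422 higher and 124 lower genes became 346 to 1735 and 83 to 1037, with 667 and 338 without the 12 h biopsy and 949 and 589 without the 48 h biopsy. Its 0 higher carriers became 0 to 6 and its 5 lower carriers 4 to 14, with 1 and 10 without the 12 h biopsy and 5 and 8 without the 48 h biopsy. By DESeq2's Wald test the slope had 265 lower genes and 1 higher carrier, and 5 carriers were higher at 48 h, against 9 by edgeR. A slope without 1 biopsy joins 2 libraries, so its sign depends on which pair is joined. Without the 48 h biopsy it turned to 0.43 in SLC13A2, 0.49 in SLC16A12, -2.74 in SLC16A14, -0.016 in SLC16A4, -0.72 in SLC16A9, 1.24 in SLC2A11, 0.063 in SLC2A5, 0.015 in SLC2A8, 0.48 in SLC5A2, 0.036 in SLC5A3 and 1.78 in SLC5A8. Without the 24 h biopsy it turned to -0.0032 in SLC16A9 and 0.080 in SLC2A11. Without the 12 h biopsy it turned to -0.39 in SLC16A5, -0.23 in SLC23A1, -0.42 in SLC23A3 and -0.30 in SLC5A9. These turns of the slope were read in 31 carriers, and those of other carriers are not listed. Comparisons at single times without 1 control have no residual degrees of freedom and gave values with no test, and those without their own biopsy gave none. No paired analysis was possible because the labels tie no single control to a single biopsy. Depth limited few carriers, where SLC2A6, SLC2A7, SLC2A9, SLC5A5, SLC5A7, SLC16A8, SLC16A11 and SLC16A14 rested on few or no counts.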
